A study of Mus musculus with 19 samples.

Results

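The first sequenced megabase beside the centromere of each mouse autosome was examined in ChIP-seq libraries of embryonic stem cells (ESCs) for 3 histone marks. Members were chosen by position alone: every 2 kb tile of the deposited table that lies between 3 and 4 Mb of chromosomes 1 to 19 (genome build NCBIM37) and that held at least 1 read in the input library. This gave 8828 of the 9500 tiles in these windows and of 1327469 tiles in the whole table; the rest of the same chromosomes, used for comparison, held 1159034 tiles with input reads. Between 455 and 499 tiles were kept on each of 16 chromosomes, 450 on chromosome 7, 423 on chromosome 16 and only 119 on chromosome 14.

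Mouse chromosomes have their centromere at one end, so the assembled sequence of each autosome starts next to long arrays of satellite repeats. These arrays are packed as constitutive heterochromatin, which the SUV39H enzymes mark with H3K9me3. H3K9me2 is laid down mainly by G9a and GLP over broad silent domains, and H3K27me3 by Polycomb repressive complex 2, mostly at CpG-rich promoters of silent developmental genes. DNMT1, the maintenance methyltransferase, keeps DNA methylation through cell division, and the study asked how histone marks behave once it is lost.

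Control libraries came from ESCs labelled Wildtype and DNMT1KO libraries from ESCs labelled Dnmt1 KO, both at day 4 and day 8. Per the study's methods, the cells were *Dnmt1* loxP/loxP ESCs grown in serum with LIF, in which Cre was induced with tamoxifen, so that control and DNMT1KO cells share the floxed alleles; the labels give the background strain as E14 and the methods as C57BL/6. Each mark had 1 pair of control and DNMT1KO libraries at day 4 and 2 pairs at day 8, and a single control input library served all of them. Whether replicates came from separate cultures is not given per sample, so p-values here measure the spread between libraries. The part of *Dnmt1* that Cre removes is not given in the sources used here, so reads over the gene were not used to check the labels. Reads in tiles numbered between 14627174 and 26181489 per ChIP library, apart from 5669098 in the first H3K9me3 DNMT1KO library of day 8, and 19010249 in the input.

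Sequences are printed from 4 of these regions, at places where H3K9me3 was high over input. The first set holds 200 bases from the middle of the tile with the highest H3K9me3 over input, and of strong tiles on 2 other chromosomes. They were sought among tiles with at least 10 input reads, outside the 1% of highest input. All are read on the plus strand from the reference of the files' build, with every CpG in capitals. The full tiles held 37 CpG on chromosome 13, 59 on chromosome 4 and 31 on chromosome 3, against a mean of 16.9 per tile in the rest of the autosomes.
Chromosome 13 tile, chr13:3420901-3421100: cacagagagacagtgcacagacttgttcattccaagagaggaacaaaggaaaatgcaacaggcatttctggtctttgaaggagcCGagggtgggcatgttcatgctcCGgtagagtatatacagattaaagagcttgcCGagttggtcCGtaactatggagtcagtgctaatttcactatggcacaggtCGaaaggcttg
Chromosome 4 tile, chr4:3384901-3385100: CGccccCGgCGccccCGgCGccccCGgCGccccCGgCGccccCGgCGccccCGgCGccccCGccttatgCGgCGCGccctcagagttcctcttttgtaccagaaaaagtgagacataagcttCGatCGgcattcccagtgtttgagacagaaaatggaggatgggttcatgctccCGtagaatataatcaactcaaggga
Chromosome 3 tile, chr3:3108901-3109100: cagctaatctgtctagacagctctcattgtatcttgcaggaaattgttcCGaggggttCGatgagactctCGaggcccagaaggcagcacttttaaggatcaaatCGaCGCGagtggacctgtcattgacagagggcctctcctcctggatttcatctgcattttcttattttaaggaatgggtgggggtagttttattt

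The second set comes from the start of chromosome 9, whose values stood apart. In 16 of the 20 tiles of its first 40 kb the sequence repeated with a period of 234 bases, the unit length known for mouse major satellite, at 60% identity or more; no period passed in the other 4, of which 3 are mostly satellite-like by shared words and the last only in 380 of 2000 bases. From this array 2 neighbouring copies are printed on the plus strand with CpG in capitals. These copies were 97.86% identical, the highest value found. Neighbouring blocks of 234 bases, cut at a fixed phase along the 40 kb and not aligned, had a median identity of 75.6% over 169 pairs. The lowest was 17.09%. Blocks out of register with the repeat are included, so the median is not that of aligned copies. The array had 19.6 CpG per kb, against 6.26 in the rest of the first megabase of that chromosome, and a GC content of 35.5%. This stretch was picked after its values had been seen.
Tandem copy 1, chr9:3027538-3027771: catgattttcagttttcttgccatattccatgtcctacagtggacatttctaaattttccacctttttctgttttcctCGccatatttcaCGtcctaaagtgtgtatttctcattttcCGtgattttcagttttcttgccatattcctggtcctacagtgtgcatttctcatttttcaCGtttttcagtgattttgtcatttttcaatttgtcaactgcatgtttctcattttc
Tandem copy 2, chr9:3027772-3028005: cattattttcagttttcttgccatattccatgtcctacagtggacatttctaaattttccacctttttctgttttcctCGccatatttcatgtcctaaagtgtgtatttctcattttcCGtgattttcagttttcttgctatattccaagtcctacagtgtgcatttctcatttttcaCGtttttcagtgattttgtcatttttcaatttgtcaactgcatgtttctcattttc

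H3K9me3 was higher in the first megabase than in the rest of the same chromosomes in every library, and both other marks were lower. For each library the ratio of mark to input reads in the first megabase was divided by the same ratio in the rest of the chromosome, with 0.5 added to each read sum, and the log2 value was averaged over the 19 chromosomes. H3K9me3 values at day 4 were 0.255 in control and 0.226 in DNMT1KO cells. At day 8 they were 0.305 and 0.314 in the 2 control libraries and 0.250 and 0.218 in the 2 DNMT1KO libraries. The 6 libraries averaged 0.261 ± 0.040 on the log2 scale (SD, n = 6), a 1.20-fold enrichment.

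H3K27me3 was depleted by a similar size. Its log2 values were -0.238 in control and -0.218 in DNMT1KO cells at day 4. They were -0.261 and -0.234 in the day 8 controls, and -0.213 and -0.162 in the day 8 DNMT1KO libraries. All 6 lay below 0, with a mean of -0.221 ± 0.033 (SD, n = 6), or 0.858-fold. H3K9me2 values were -0.206 and -0.225 in control and DNMT1KO cells at day 4, -0.221 and -0.205 in the day 8 controls, and -0.261 and -0.110 in the day 8 DNMT1KO libraries. Its mean was -0.205 ± 0.051 (SD, n = 6), or 0.868-fold.

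For each mark the exact paired permutation test over 6 libraries gave a two-sided p of 0.03125, the smallest that this number allows, and an adjusted p of 0.0375 over the 6 tests of this family. H3K9me3 exceeded H3K27me3 by 0.48 and H3K9me2 by 0.47 on the log2 scale (two-sided exact permutation test, n = 6 against 6, adjusted p = 0.00649 for both). H3K9me2 and H3K27me3 differed by 0.016, within the spread of the libraries (exact permutation p = 0.548). The shared input library enters the first 3 tests and cancels in the differences between marks. Leaving out the 1% of tiles with the highest input (over 29 reads) lowered the H3K9me3 value to 0.145, a change of over 1.5 times, and left it above 0.

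Chromosomes differed widely in this enrichment. H3K9me3 was highest on chromosome 9, at 1.36 ± 0.17 on the log2 scale (SD, n = 6), followed by chromosome 12 at 0.94 ± 0.15 and chromosome 3 at 0.72 ± 0.16. All 6 libraries lay above 0 on each of these 3. The lowest values were on chromosome 7 at -0.33 ± 0.05, chromosome 2 at -0.31 ± 0.10 and chromosome 5 at -0.23 ± 0.03, where all 6 libraries lay below 0. H3K9me3 exceeded 0 on 12 or 13 of the 19 chromosomes in each library. On chromosomes 9 and 12 the value depended on a few tiles of very high input: without the 1% of tiles with the highest input it was 0.25 and -0.16. On chromosome 3, which has no such dependence, it was 0.73. On chromosome 2 the sign turned, to 0.24.

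**Figure D1:**
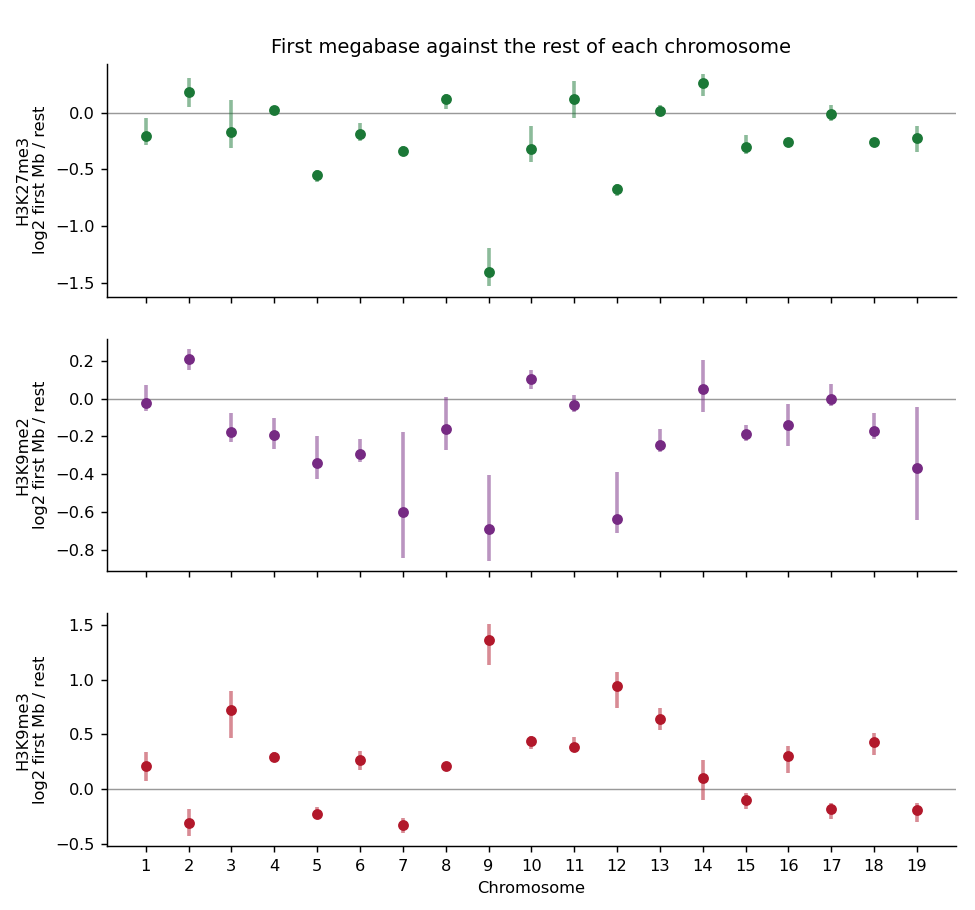
Enrichment of the first megabase over the rest of each autosome (log2, y axis) for H3K27me3, H3K9me2 and H3K9me3 by chromosome; points are the mean of 6 libraries and bars run from the lowest to the highest library. H3K9me3 peaks at 1.36 on chromosome 9 and H3K27me3 has its lowest value, -1.40, on the same chromosome.

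The Polycomb mark H3K27me3 had nearly the mirror image on chromosome 9, its lowest first megabase, at -1.40 ± 0.15 on the log2 scale (SD, n = 6). Chromosome 12 followed at -0.67 ± 0.04 and chromosome 5 at -0.55 ± 0.04. Its highest values were on chromosome 14 at 0.26 ± 0.07, chromosome 2 at 0.18 ± 0.08 and chromosome 11 at 0.12 ± 0.13. Without the 1% of tiles with the highest input, H3K27me3 was at -0.61 on chromosome 9, -0.16 on chromosome 12 and -0.53 on chromosome 5. It was then at 0.20 on chromosome 14, -0.045 on chromosome 2 and 0.23 on chromosome 11. H3K9me2 was lowest on chromosomes 9, 12 and 7, at -0.69 ± 0.17, -0.64 ± 0.12 and -0.60 ± 0.23. Its highest values were 0.21 ± 0.04 on chromosome 2, 0.11 ± 0.04 on chromosome 10 and 0.05 ± 0.11 on chromosome 14, the last with libraries on both sides of 0. Without the same tiles of high input, H3K9me2 was at -0.32, -0.46 and -0.61 on chromosomes 9, 12 and 7. On chromosomes 2, 10 and 14 it was then at 0.085, 0.11 and 0.0049. Chromosome 14 rests on little material, since its 119 tiles held 2.2 input reads each on average.

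Against all other 1 Mb windows of the same chromosome, the first window ranked high for H3K9me3 on some chromosomes and low on others. In the control libraries it ranked 1 of 157 on chromosome 3 and 1 of 121 on chromosome 9. It ranked 2 of 127 on chromosome 10 and 2 of 88 on chromosome 18, 3 of 116 on chromosome 13, 4 of 115 on chromosome 12 and 5 of 95 on chromosome 16. On chromosomes 5 and 7 it ranked 126 of 149 and 118 of 138. In all, the first window lay in the top 10% on 8 of 19 chromosomes and above the median on 14. These ranks keep the tiles of highest input, and no rank was computed without them. Without the 1% of tiles with the highest input, the H3K9me3 enrichment given above was 0.25 on chromosome 9 and -0.16 on chromosome 12. For H3K27me3 it was in the top 10% on 0 chromosomes and in the bottom 10% on 2, and for H3K9me2 on 0 and 3.

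The H3K9me3 enrichment was concentrated in the sequence nearest to the centromere. In steps of 0.1 Mb, the first step had 0.742 ± 0.058 on the log2 scale (SD, n = 6 libraries). It was above 0 on 16 of the 17 chromosomes with enough tiles there to be used. The next step had 0.425 ± 0.046 (14 of 18 chromosomes), the one after that 0.093 ± 0.022, and all further steps of the first megabase lay between -0.184 and 0.062. H3K27me3 had no such gradient, with -0.178 ± 0.124 in the first step, -0.334 ± 0.049 in the next and -0.510 to -0.073 beyond. H3K9me2 was nearest to the rest of the chromosome at both ends of the megabase, at -0.093 ± 0.041 in the first step and -0.092 ± 0.052 in the last.

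The gradient of H3K9me3 was as large without the tiles of very high input. Without the satellite-like tiles described further on, the first step was at 0.753 ± 0.061 on the log2 scale (17 of 17 chromosomes above 0), and without the 1% of tiles with the highest input at 0.762 ± 0.062 (15 of 16). Base composition was close to that of the rest, with 42.0% GC in the first step against 41.9%. Coverage and copy number were not: the median tile held 9 input reads in the first step and 12 in the next, against 15 in the rest, and high-copy tiles, those in which at least 0.5 of the sampled 31-base words occur 50 or more times in the genome, made up 7.36% and 7.11% against 3.35%. Their part in the gradient was not tested.

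**Figure D2:**
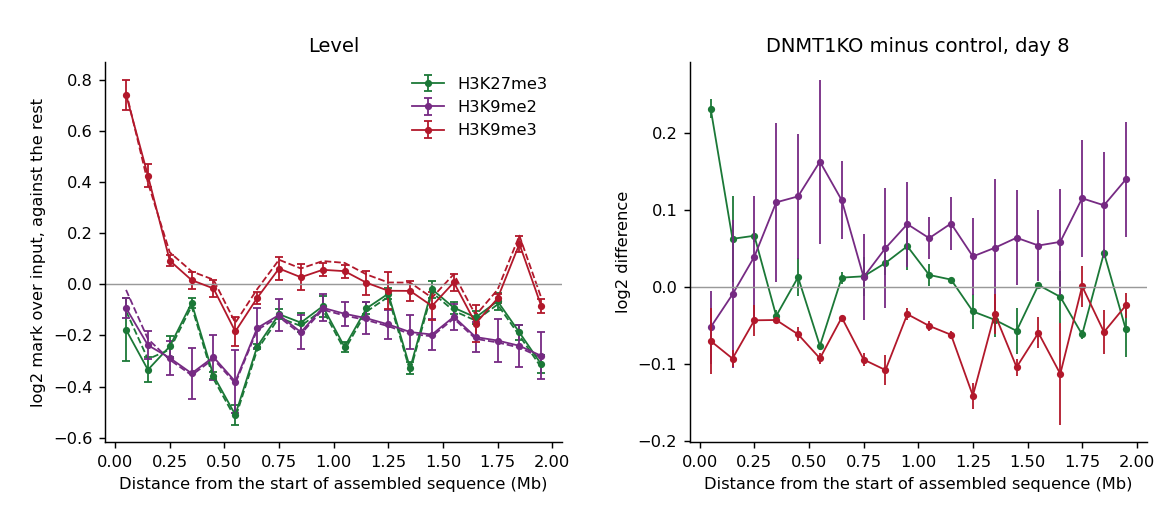
Enrichment over the rest of the chromosome (log2) by distance from the first sequenced base (Mb); in the left panel error bars are the SD of 6 libraries and dashed lines leave out satellite-like tiles, and in the right panel, the change in DNMT1KO at day 8, vertical lines join the 2 pairs. H3K9me3 falls from 0.742 in the first step to 0.093 in the third, and the change of H3K27me3 is largest in the first step, at 0.232.

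Single chromosomes departed from this average gradient. The strongest steps of 0.1 Mb for H3K9me3 were the first of chromosome 9 at 1.60 ± 0.19, the second of chromosome 12 at 1.58 ± 0.20 and the first of chromosome 3 at 1.48 ± 0.27 on the log2 scale (SD, n = 6). Next came 0.2 to 0.3 Mb on chromosome 4 at 1.41 ± 0.21, and 0.3 to 0.4 and 0.4 to 0.5 Mb on chromosome 13 at 1.38 ± 0.20 and 1.37 ± 0.15. Chromosome 16 had 1.10 ± 0.20 at 0.4 to 0.5 Mb and 1.10 ± 0.13 at 0.6 to 0.7 Mb. Chromosome 2 was the exception in the first step, with -0.47. Without the 1% of tiles with the highest input, none of which lie in that step, it was at 0.085. The second step of chromosome 12 holds 2 satellite-like tiles, described further on, with 5797 input reads. The first step of chromosome 9 holds 20 such tiles, and was at 1.39 without the 1% of tiles with the highest input.

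**Figure D3:**
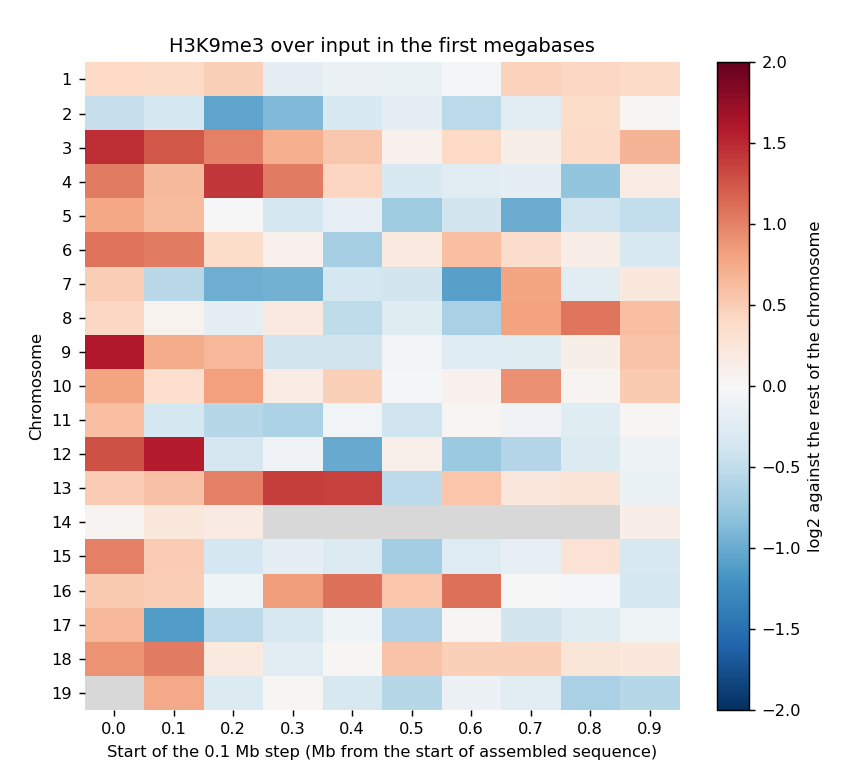
H3K9me3 enrichment over the rest of the chromosome (log2 colour scale, mean of 6 libraries) for each autosome (rows) in steps of 0.1 Mb from the first sequenced base (columns); grey marks steps with under 10 tiles. Most rows are high at the left edge, and chromosome 13 is highest further in, with 1.38 at 0.3 to 0.4 Mb.

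Of the tiles with at least 10 input reads and outside the 1% of highest input, that of chromosome 13 printed above had most H3K9me3 over input. This tile, at 3420001 to 3422000, lies between genes, 55489 bp from 2810429I04Rik, and held 10 input reads. Its control libraries had 77 reads at day 4, and 156 and 86 at day 8, and the DNMT1KO libraries 72, 36 and 71; the library of 36 reads is the shallow one. In controls it stood at 3.31 ± 0.53 log2 over input (SD, n = 3). A tile of chromosome 18 at 3212001 to 3214000, 52046 bp from Crem, came next at 3.13 ± 0.43. The tile at 3384001 to 3386000 of chromosome 4 is 552 bp from Gm11785 and had 87, 123 and 89 control reads and 84, 41 and 63 DNMT1KO reads in the same order, or 3.02 ± 0.27 log2 over input in controls. The rule took the highest control values over input, so controls above input were fixed by the choice. Few input reads in a tile raise the ratio in every library at once. The DNMT1KO libraries were not used in the choice but share the input, and were above it in all 3 tiles. None of the 3 tiles was called at day 8.

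4 kinds of sequence stood apart in the first megabase, and they are described as classes that were defined after values had been seen. Satellite-like tiles share at least 100 bases of 25-base words with the chromosome 9 array. There were 25 of them, 0.283% of the tiles with 16.8% of the input reads: 20 tiles at 3000001 to 3040000 of chromosome 9, 2 at 3000001 to 3004000 of chromosome 11, 2 at 3108001 to 3112000 of chromosome 12 and 1 at 3016001 to 3018000 of chromosome 4. They averaged 1132 input reads per tile, which is far above the 14.8 of the 8218 tiles in no class. Reads with low mapping quality had been discarded by the authors, so these reads are those that could be placed, and assembled copies can stand for unassembled ones.

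Satellite-like tiles had the highest H3K9me3 of any class and the lowest H3K27me3. H3K9me3 was at 3986 RPM, the reads of these tiles per 1e6 reads in autosomal tiles, in control and 3962 in DNMT1KO cells at day 4. At day 8 the pairs had 5189 and 5221 RPM, and 5039 and 4857 RPM. Input was at 1538.5 RPM, so the mark stood at 1.60 ± 0.19 log2 over input (SD, n = 6) and the control and DNMT1KO values overlapped. H3K9me2 had 934 RPM in control and 734 RPM in DNMT1KO cells at day 4, 1096 and 769 RPM in the first pair of day 8, and 853 and 841 RPM in the second, always below input (-0.83 ± 0.21 log2).

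H3K27me3 at the satellite-like tiles was lowest in the controls and higher in each DNMT1KO library. It had 406 RPM in control and 439 RPM in DNMT1KO cells at day 4. In the first pair of day 8 it had 398 and 540 RPM, and in the second 399 and 542 RPM. The 2 day 8 DNMT1KO libraries thus lay above all 4 others, while all 6 stayed below input at -1.77 ± 0.21 log2 (SD, n = 6). The change was 0.44 on the log2 scale in both day 8 pairs and 0.11 at day 4. It had the same direction in both pairs on all 4 chromosomes: 0.48 and 0.43 on chromosome 9, 0.55 and 0.66 on chromosome 11, 0.28 and 0.47 on chromosome 12, and 0.54 and 0.91 in the single tile of chromosome 4. The 8 satellite-like tiles elsewhere on the autosomes changed by 0.40 and 0.35.

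The labels give a different catalogue number of the H3K27me3 antibody for the control and the DNMT1KO library of each day 8 pair, and the same one for both libraries of day 4. The numbers run up by 1 from library to library, and the study's methods list a single H3K27me3 antibody, so whether the antibody differed could not be settled. If it did, it cannot be told apart from genotype for H3K27me3 at day 8.

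**Figure D4:**
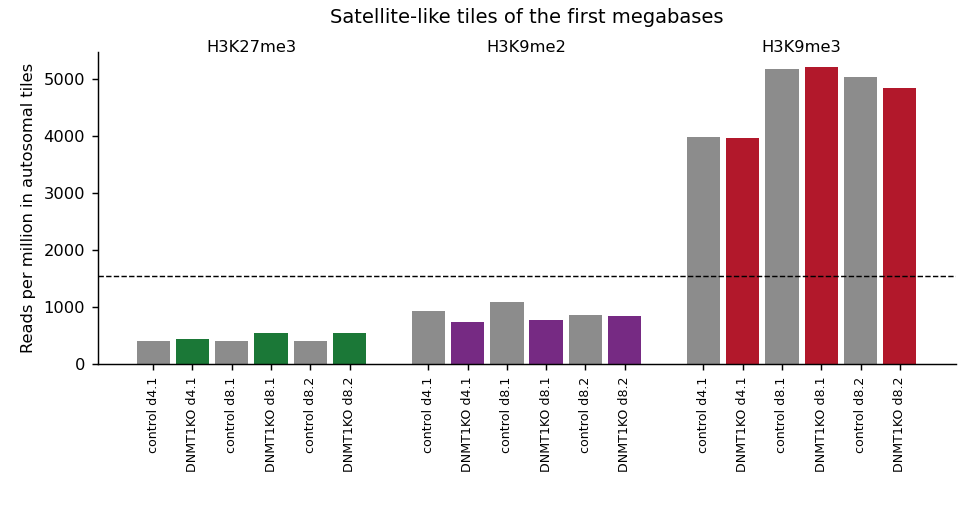
RPM (reads per 1e6 autosomal tile reads) in the 25 satellite-like tiles for each ChIP library (bars, grouped by mark, day and genotype), with the input at 1538.5 as a dashed line. H3K9me3 libraries lie above the input (3962 to 5221), H3K9me2 and H3K27me3 libraries below it, and H3K27me3 is higher in the DNMT1KO library of each pair.

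The other classes moved differently. The CpG-rich tiles, 60 with at least 80 CpG, carried the highest H3K27me3 over input of the classes: 111 RPM in control and 91.3 RPM in DNMT1KO cells at day 4, then 154 and 76.8 RPM, and 108 and 44.1 RPM in the day 8 pairs. Both day 8 DNMT1KO libraries lay below all 4 others, with changes of -1.01 and -1.29 on the log2 scale. The 9107 CpG-rich tiles of the rest of the autosomes changed by -0.92 and -1.19. Their H3K27me3 stood higher over input, at 2.12 ± 0.58 log2 against 1.13 ± 0.61 in the first megabase (SD, n = 6). H3K9me2 in the CpG-rich tiles of the first megabase changed by 0.17 and 1.20.

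High-copy tiles were more frequent in the first megabase, 487 tiles or 5.52% against 3.32% in the rest. They carried H3K9me3 at 1.05 ± 0.11 log2 over input (SD, n = 6), against 0.77 ± 0.11 for such tiles in the rest. Their H3K27me3 changed by 0.27 and 0.45 in the day 8 pairs, against 0.20 and 0.27 in the rest. A block of 38 tiles on chromosome 11, with 400 input reads per tile but little satellite-like sequence, had 882 and 928 RPM of H3K27me3 in the day 8 controls and 1179 and 1138 RPM in DNMT1KO cells. The 8218 tiles in no class still had more H3K9me3 than their counterparts, at 0.09 ± 0.04 log2 over input against -0.07 ± 0.01 in the rest, and less H3K27me3, at -0.14 ± 0.02 against -0.01 ± 0.01. H3K27me3 at day 8 was thus lower in DNMT1KO cells in the CpG-rich tiles and higher in the satellite-like and high-copy tiles and in the chromosome 11 block, which stood above input for this mark at 0.32 ± 0.17 log2; the cause was not tested.

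Over the whole first megabase the marks changed little between control and DNMT1KO cells. At day 8 the first-megabase value of H3K27me3, relative to the rest, changed by 0.048 and 0.072 on the log2 scale (mean 0.060 ± 0.017, SD, n = 2 pairs), that of H3K9me3 by -0.055 and -0.096 (mean -0.075 ± 0.029), and that of H3K9me2 by -0.040 and 0.095, in opposite directions. At day 4 the single pair gave 0.019, -0.029 and -0.019 in the same order of marks. With 2 libraries against 2 no exact permutation test can pass a threshold of 0.05, so these changes carry no test. The H3K27me3 change was 0.030 without the 1% of tiles with the highest input and 0.0044 as a mean of deposited log2 values.

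Part of the H3K27me3 change sat in the first 0.1 Mb. Its enrichment there was -0.241 in control and -0.204 in DNMT1KO cells at day 4. It was -0.328 and -0.108 in the first pair of day 8, and -0.214 and 0.030 in the second. Both day 8 DNMT1KO libraries were above the other 4, and the change of 0.220 and 0.244 (mean 0.232 ± 0.017, SD, n = 2 pairs) compared with 0.062 in the next step. The change was positive in both pairs on 14 of 17 chromosomes, largest on chromosomes 13 (0.45 and 0.54) and 9 (0.47 and 0.44), and negative in both on chromosomes 2 and 14. It was 0.219 without satellite-like tiles and 0.212 without the 1% of tiles with the highest input. H3K9me2 changed by -0.100 and -0.005 in this step and H3K9me3 by -0.028 and -0.113.

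On plain RPM, 15 of 19 first windows of 100 kb (78.9%) had more H3K27me3 in DNMT1KO cells in both day 8 pairs, where 48.5% of all 25433 windows did. From 0.1 to 1 Mb the share was 50.3% of 165 windows, near that of all windows. The first step was singled out after its values had been seen, so the shares are a description.

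**Figure D5:**
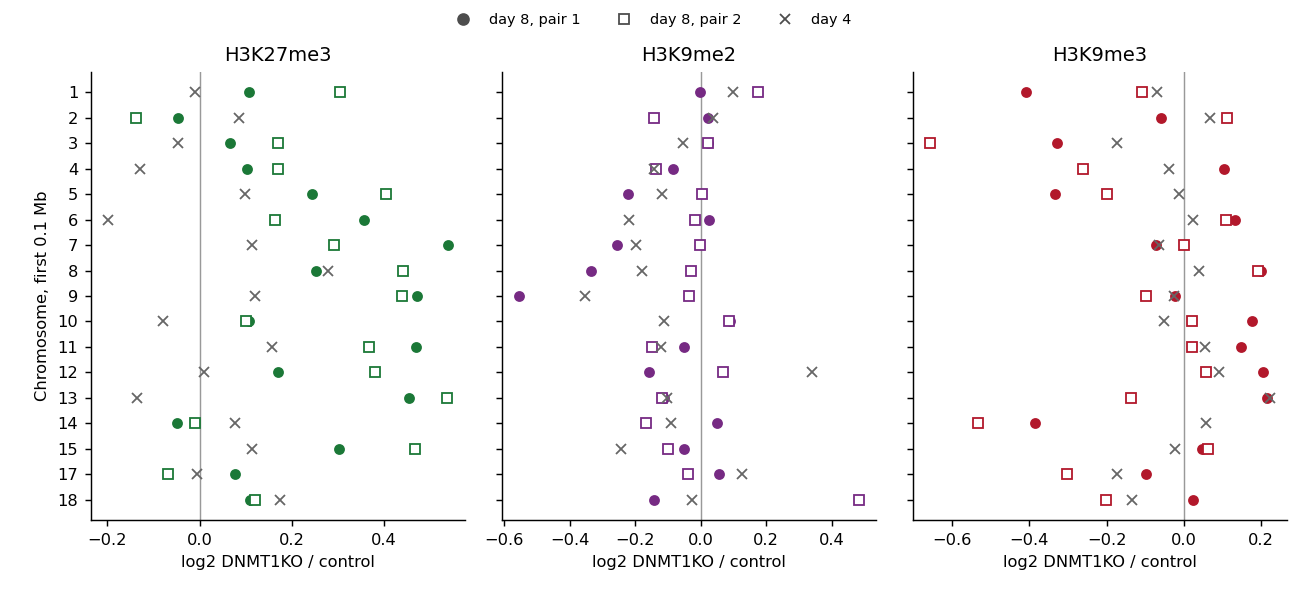
Change of each mark in DNMT1KO against control (log2) in the first 0.1 Mb of each chromosome; circles are the first and squares the second day 8 pair, and crosses the day 4 pair. For H3K27me3 both day 8 pairs lie above 0 on 14 of 17 chromosomes, whereas H3K9me2 and H3K9me3 lie on both sides of 0.

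By chromosome, the largest day 8 changes of H3K27me3 were higher values on chromosomes 9 (0.27 and 0.29 on the log2 scale in the 2 pairs), 11 (0.32 and 0.24) and 3 (mean 0.16). For H3K9me2 they were on chromosome 19 (0.28 and 0.36), chromosome 9 (-0.45 and 0.01) and chromosome 7 (-0.08 and 0.40), so only chromosome 19 had pairs of like direction. For H3K9me3 they were lower values on chromosomes 3 (-0.25 and -0.43), 14 (mean -0.24) and 1 (-0.24 and -0.17).

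A limma fit over 1 Mb windows of all chromosomes, with 2 control and 2 DNMT1KO libraries of day 8, called 4 first windows lower in H3K9me3 and none higher. Chromosome 3 fell by 0.36 on the log2 scale (SE 0.064, limma adjusted p = 0.000112). Chromosome 14 fell by 0.25 (SE 0.069, limma adjusted p = 0.00393), chromosome 1 by 0.21 (SE 0.064, limma adjusted p = 0.00776) and chromosome 16 by 0.17 (SE 0.063, limma adjusted p = 0.0291). These 4 of 19 compare with 28.1% of all windows called lower, and the 0 called higher with 23.9%, so the share of lower calls is near the background. For H3K27me3 0 of 19 first windows were called, where the background was 0%. Chromosomes 9 and 11 had an unadjusted p under 0.05, both with higher values. The share of all windows at that level was not computed. For H3K9me2 0 of 19 were called against 5.07% of all windows, with chromosome 19 nearest (0.37, limma adjusted p = 0.0699). Leaving out 1 library at a time, only the chromosome 3 call held each time: chromosome 1 lost it without the shallow DNMT1KO library or the second control, chromosome 14 without the second control, and chromosome 16 without either control or without the second DNMT1KO library.

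In 100 kb windows of the first megabase, limma called 13 of 184 lower in H3K9me3, or 7.07%, where the background was 12%, and 3 higher, where it was 9.38%. These counts depended on single libraries: the lower calls numbered 2 without the first control, 0 without the second, 19 without the shallow DNMT1KO library and 28 without the second DNMT1KO library. The first megabase of chromosome 3 held 5 of the 13, at 0 to 0.3 Mb, 0.5 to 0.6 Mb and 0.7 to 0.8 Mb. Its largest was at 0.5 to 0.6 Mb, which fell by 0.60 (SE 0.115, limma adjusted p = 0.0113). The 3 windows called higher lay on chromosome 10 at 0.1 to 0.2 Mb (0.35, adjusted p = 0.0261) and chromosome 5 at 0.3 to 0.5 Mb. For H3K27me3 and H3K9me2 0 of 184 windows were called, as were 0% of all windows. At an unadjusted p under 0.05 there were 39 and 11, and the share of all windows at that level was not computed.

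At the level of single 2 kb tiles limma called none of 8816, 8814 and 8818 tested tiles for H3K27me3, H3K9me2 and H3K9me3, as in the whole genome (0% for each mark). At an unadjusted p under 0.05 there were 916, 552 and 441. The share of all tiles at that level was not computed, so these counts cannot be read as an excess. The study used a 2-fold criterion for higher enrichment at transposable elements. Here 2-fold was applied to single tiles with at least 20 reads in the 4 libraries, in either direction and in both day 8 pairs. H3K27me3 was higher in 102 of 7686 tiles (1.33%, background 0.838%) and lower in 120 (1.56%, background 1.24%), of which 16 were CpG-rich. H3K9me2 was higher in 105 of 7720 tiles (1.36%, background 1.31%) and lower in 18 (0.233%, background 0.315%). H3K9me3 was higher in 47 of 7813 tiles (0.602%, background 1.08%) and lower in 86 (1.1%, background 1.28%). None of these tiles was satellite-like.

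Tiles named by a fixed rule show what such changes rest on. The tile with most H3K27me3 over input, at 3358001 to 3360000 of chromosome 13, had 119 CpG and lies between genes, 117489 bp from 2810429I04Rik. It held 401, 497 and 385 reads in the control libraries of day 4 and day 8 and 310, 273 and 180 in DNMT1KO cells, against 11 input reads. Next came 2 tiles of chromosome 11: 3896001 to 3898000, over coding and untranslated exon sequence of Gal3st1, with 228, 235 and 181 control reads and 193, 164 and 96 DNMT1KO reads, and 3762001 to 3764000 in Osbp2, with 165, 219 and 152 against 142, 197 and 120. Corrected for depth, the day 8 changes were -0.82 and -1.33, -0.47 and -1.14, and -0.11 and -0.57 on the log2 scale, lower in both pairs of each tile, while day 4 gave -0.13, 0.0045 and 0.029. These tiles were chosen on the control libraries that the changes are taken against, which favours a fall.

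The largest changes came from few reads. For H3K27me3 the tile at 3300001 to 3302000 of chromosome 7 lies 655 bp from Myadm. It had 16, 14 and 18 reads in controls and 3, 3 and 2 in DNMT1KO cells. The tile at 3718001 to 3720000 of chromosome 19, 120 bp from 1810055G02Rik, had 7, 13 and 10 against 5, 0 and 4. For H3K9me2 the tile at 3352001 to 3354000 of chromosome 7, in an intron of Cacng7, a calcium channel subunit gene, had 3, 2 and 0 reads in controls and 10, 11 and 14 in DNMT1KO cells. For H3K9me3 the tile at 3418001 to 3420000 of chromosome 3 had 6, 13 and 12 reads in controls and 8, 0 and 2 in DNMT1KO cells, where the 0 is in the shallow library.

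The highest H3K9me2 tiles stood less far above input. The tile at 3964001 to 3966000 of chromosome 16, in an exon of the innate immune regulator Nlrc3, stood at 1.78 ± 0.51 log2 over input in controls (SD, n = 3). The tile at 3718001 to 3720000 of chromosome 11, in Osbp2, an oxysterol-binding protein gene, and that at 3660001 to 3662000 of chromosome 16, 45215 bp from Mefv, both stood at 1.53, with SDs of 0.36 and 0.07.

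The first megabases overlapped 222 protein-coding genes and 16 lincRNA genes, unevenly spread: chromosomes 1 and 3 had 1 protein-coding gene each (Xkr4 and Hnf4g), and chromosomes 7, 8 and 11 had 26, 24 and 24. Of these 238 genes, 203 had at least 30 input reads over the gene body. H3K27me3 was lower in DNMT1KO cells in both day 8 pairs at 106 of the 203 (52.2%), against 52.8% of 19610 other genes. Among those with at least 80 CpG in the start tile the counts were 38 of 51 (74.5%, against 72.1% of others). H3K9me3 was higher in both pairs at 51 (25.1%, against 37.5% of others), and H3K9me2 at 99 (48.8%, against 56.1%). In the limma fit over all gene bodies 0 of 206, 202 and 196 tested genes were called for H3K27me3, H3K9me2 and H3K9me3, as were 0% of all genes. At an unadjusted p under 0.05 there were 67, 1 and 8. The share of all genes at that level was not computed, so these counts cannot be read as an excess. On simulated data this fit found none of the changed genes, so its 0 calls do not show that genes were unchanged. With a trend or with limma-voom, H3K27me3 and H3K9me2 also had 0 calls. These 2 fits found most changed genes in the simulations. The simulated reads used H3K27me3 means and a spread that was set, not taken from the libraries. These 0 calls therefore do not show unchanged genes either. For H3K9me3 there were 3 calls with a trend (1.53%, against 7.12% of all genes) and 5 with limma-voom (2.55%, against 10.4%).

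The genes with most H3K27me3 over input in controls lay on chromosomes 11, 19 and 8. Gal3st1 (chr11:3883639-3899329, plus strand), a sulfotransferase of sulfatide synthesis, led at 2.46 ± 0.26 log2 over input (SD, n = 3): it had 35.3 RPM in control and 33.3 in DNMT1KO cells at day 4, 42.7 and 31.8 in the first pair of day 8, and 29.95 and 18.6 in the second, against 6.47 in input. Gal, which encodes the neuropeptide galanin (chr19:3409919-3414472, minus strand), followed at 2.26 ± 0.20. The zinc finger gene Zfp358 stood at 1.94 ± 0.25, 1700019B03Rik at 1.86 ± 0.25 and the solute carrier gene Slc35e4 at 1.79 ± 0.40. All 5 had lower H3K27me3 in DNMT1KO cells in both day 8 pairs, as did 52.8% of genes outside the first megabases, and none passed the test. They were chosen on the control libraries that the change is taken against, which favours a fall.

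The largest H3K27me3 losses by size were at the lincRNA gene Tug1 (chr11:3539797-3548815, minus strand; -1.34 and -1.26 on the log2 scale in the day 8 pairs, limma adjusted p = 0.142), at Zfp358 (-1.05 and -1.35, adjusted p = 0.153) and at the ribosomal protein gene Rps9 (-0.91 and -1.46, under the read minimum of the test). Tug1 had 3.66 RPM in control and 2.53 in DNMT1KO cells at day 4, 3.80 and 1.49 in the first pair of day 8, and 3.14 and 1.30 in the second. Its start tile has 152 CpG. Of genes outside the first megabases with at least 80 CpG in the start tile, 72.1% were lower in both day 8 pairs. The largest gains were at Gm10716 (0.75 and 0.79, adjusted p = 0.142), a predicted gene inside the chromosome 9 array, at the phosphatase gene Dusp18 (0.52 and 0.86) and at the aminoacylase gene Acy3 (0.58 and 0.80). The lowest H3K27me3 levels were at Gm10716 (-2.17 ± 0.11), AW549877 (-2.14 ± 0.25) and Gm10721 (-2.11 ± 0.05), the first and last of which lie in the array.

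H3K9me3 over genes was highest at 5 predicted genes of the chromosome 9 array: Gm10720 (1.73 ± 0.20 log2 over input in controls, SD, n = 3), Gm10719 (1.73 ± 0.22), Gm10106 (1.71 ± 0.19), Gm10716 (1.66 ± 0.22) and Gm10717 (1.65 ± 0.21). They lie in one repeat array, in tiles of the highest input, so their reads cannot be assigned to one of them with certainty. Gm10716 had 39.6, 53.4 and 49.5 RPM in controls and 38.9, 49.2 and 47.4 in DNMT1KO cells, with 14.9 in input. The lowest levels were at Ndufa3 (-2.14 ± 0.37), a complex I subunit gene, AW549877 (-2.02 ± 0.05) and 2900053A13Rik (-1.80 ± 0.43). None of the following changes passed the limma fit without a trend. Cnksr3, a signalling scaffold gene (chr10:3134304-3227478, plus strand), had 34.7, 29.95 and 32.8 RPM in controls and 36.1, 42.9 and 44.2 in DNMT1KO cells (0.52 and 0.43 at day 8, limma adjusted p = 0.292). Gng11, a G protein subunit gene, had 0.23 and 0.64, and Ndufs8, also of complex I, 1.02 and -0.01. The largest losses were at Gm2888 (-0.89 and -1.12), Tmc4 (-1.53 and -0.38) and Tsen34 (-1.73 and -0.13), of which the last 2 were largest in the pair that holds the shallow library.

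H3K9me2 over genes had a narrower upper range. Gm15448 stood at 0.84 ± 0.15 log2 over input in controls (SD, n = 3), the lectin gene Cd209b at 0.82 ± 0.22, the leukocyte receptor gene Lilra6 at 0.81 ± 0.33, Ucn3, which encodes the peptide hormone urocortin 3, at 0.77 ± 0.17 and Cd209a at 0.70 ± 0.14. Cd209b had 7.25, 7.74 and 9.74 RPM in controls and 7.58, 6.46 and 7.84 in DNMT1KO cells, with 4.63 in input, so its groups overlapped. The lowest were 2900053A13Rik (-3.47 ± 1.45), Pcp2 (-3.17 ± 1.27), whose gene body overlaps it on the other strand, and Tsen34 (-2.70 ± 0.34), a tRNA splicing gene. ChIP reads cannot be given to one strand. The largest gains were at Tsen34 (0.35 and 1.81), Pcp2 (1.05 and 0.99) and Ndufa3 (0.43 and 1.58). Tsen34 and Pcp2 were named as low on the control libraries that the change is taken against, which favours a gain. The largest losses were at AU018091 (-0.99 and 0.20), Lilra6 (-0.56 and -0.22) and Gm10716 (-0.52 and -0.12). None passed the test.

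5 genes of chromatin enzymes and their partners lie in these windows. Suv39h2 (chr2:3373087-3392303, minus strand) encodes one of the enzymes that write H3K9me3. It had 3.40, 4.57 and 3.50 RPM of H3K27me3 in controls and 2.84, 2.68 and 1.95 in DNMT1KO cells. The day 8 changes were -0.77 and -0.84 on the log2 scale (limma adjusted p = 0.159). A fall of H3K27me3 in both day 8 pairs was seen at 52.8% of genes outside the first megabases. The H3K9me3 of Suv39h2 itself was low, at -1.06 ± 0.24 log2 over input. Dnmt3a (chr12:3806007-3914443, plus strand), a de novo DNA methyltransferase, was the only one of the 5 with H3K27me3 above input, at 0.48 ± 0.19, and had 61.2, 47.3 and 56.4 RPM in controls and 56.9, 50.7 and 54.2 in DNMT1KO cells. Its H3K9me2 was 35.2, 26.5 and 39.7 RPM in controls and 44.9, 40.6 and 50.6 in DNMT1KO cells (adjusted p = 0.667). Suv420h1, which writes H4K20 methylation, Morc2a, which acts with the HUSH silencing complex, and Asxl2, a partner of the deubiquitinase that acts on H2A, stood below input for all 3 marks, between -2.10 and -1.09. For none of the 5 did a mark pass the test.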

How the data were processed

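ChIP-seq libraries for H3K27me3, H3K9me2 and H3K9me3 and 1 input library were analysed. Per the labels and methods, the authors trimmed reads with Trim Galore, aligned them with Bowtie2 2.2.9 to NCBIM37 and discarded low mapping quality. The deposited values are log2 observed over expected reads per tile of 2000 bp (the methods give another tile size); how duplicates were treated is not given in the sources used here. A tile without reads is written as 0.9 read, and whole reads were recovered for 100% of values.

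Read sums gave RPM (reads in autosomal tiles) and log2 ratios to input with a pseudocount of 0.5. Libraries were compared by exact permutation tests, two-sided, with Benjamini-Hochberg adjustment over 6 tests. Windows, gene bodies (minimum mean of 20 reads) and tiles were fitted over the whole genome with limma 3.58.1 (R 4.3.3), 2 control against 2 DNMT1KO libraries of day 8, at an adjusted p of 0.05, after tests on simulated data. Pairs are libraries of equal replicate number. Depth is 5669098 to 26181489 reads; 1 input library and 2 replicates limit the precision.

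Named by rule were the 3 highest and lowest chromosomes and the 3 with the largest change per mark, the 3 tiles highest over input and the 2 most changed in each direction, the 5 highest and 3 lowest genes, the 3 most changed genes in each direction, and 5 chromatin genes. Tiles highest over input were sought among those with at least 10 input reads, outside the 1% of highest input. The members and lists were chosen with earlier results of these data known. Alternatives were other weightings of reads, tiles of high input left out, other window lengths, GC weighting, control libraries alone, other limma settings, a replicate block, libraries left out one at a time, and, chosen after seeing the data, satellite-like tiles or chromosome 14 left out and windows of 100 kb.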

Additional observations from a re-analysis of the deposited data

Results flagged for a closer look

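The direction of the change in DNMT1KO cells was compared between days for 94 results. These were named genes and tiles, the tile classes, the first megabase and its first 0.1 Mb, by mark. Of them, 18 had one direction in the day 4 pair and the opposite one in both day 8 pairs. All 18 were named genes or tiles, and no share expected by chance was computed. The difference between the days was not tested, and day 4 is a single pair. Values are log2 changes, the mean of the day 8 pairs first. For H3K27me3 over genes, Rps9 had -1.18 at day 8 against 0.148 at day 4, and 1700019B03Rik had -0.137 against 0.229. For H3K9me2, Gm15448 had -0.261 against 0.198 and Cd209b -0.287 against 0.062. For H3K9me3, Gng11 had 0.438 against -0.150, Gm2888 -1.01 against 0.392, Tmc4 -0.953 against 0.175, Tsen34 -0.932 against 0.678 and Suv39h2 0.0558 against -0.130. Gm2888, Tmc4 and Tsen34 had 35, 95 and 67 input reads, and the first day 8 pair of H3K9me3 holds the shallow library.

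Among tiles, H3K27me3 at 3896001 of chromosome 11 (in Gal3st1) had -0.810 against 0.0045 and at 3762001 (in Osbp2) -0.341 against 0.029, so that day 4 was close to no change. At 3256001 of chromosome 3 it had 3.09 against -1.34 and at 3144001 of chromosome 18 it had 2.96 against -1.68, in high-copy tiles with 2 and 3 input reads. For H3K9me2 the tile at 3964001 of chromosome 16 (in Nlrc3) had 0.407 against -0.518, that at 3660001 had -0.214 against 0.337, and that at 3958001 of chromosome 9 had -1.94 against 0.110. For H3K9me3 the tile at 3912001 of chromosome 13, in an exon of Net1, had 1.79 against -0.650, and that at 3418001 of chromosome 3 had -2.68 against 0.042.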

How the results depend on the processing

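Of 337 values recomputed under alternatives, 265 kept their direction and their side of the threshold or moved little, 38 moved, 33 lost their call and 1 turned. Some of the 265 could not differ, since pairing the day 8 libraries the other way round leaves the mean change as it was. Counts that stayed at 0 are also among the 265. The difference of H3K9me2 and H3K27me3 turned to -0.0816 with the mean of deposited log2 values (exact permutation, adjusted p = 0.0173). With control libraries only, too few to pass an exact test by construction, H3K27me3 stood at -0.244, H3K9me2 at -0.211 and H3K9me3 at 0.291 (exact permutation, adjusted p = 0.25), and H3K9me3 differed from H3K27me3 by 0.535 and from H3K9me2 by 0.502 (adjusted p = 0.2). Leaving out 1 library gave -0.233 to -0.213 for H3K27me3, -0.224 to -0.193 for H3K9me2 and 0.251 to 0.270 for H3K9me3 (adjusted p = 0.075, the smallest that 5 libraries allow), and -0.00266 to 0.0280, 0.472 to 0.494 and 0.455 to 0.485 for the differences of H3K9me2 and H3K27me3, of H3K9me3 and H3K27me3, and of H3K9me3 and H3K9me2.

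The day 8 change of H3K27me3 was 0.0989 with reads summed over chromosomes, 0.0298 without the 1% of tiles with the highest input, 0.0044 as a mean of deposited log2 values, 0.0819 over the first 0.5 Mb, 0.0196 over the first 2 Mb and 0.0427 without satellite-like tiles. That of H3K9me3 was -0.0389 with summed reads and -0.0180 as a mean of deposited log2 values; the cause was not tested. Leaving out 1 library gave 0.0346 to 0.0852 for H3K27me3, -0.0482 to 0.103 for H3K9me2 and -0.0915 to -0.0590 for H3K9me3.

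The counts of tiles past the fold (H3K27me3 higher and lower, H3K9me2 higher and lower, H3K9me3 higher and lower) were 2, 2, 3, 0, 0 and 1 at 4-fold, and 66, 51, 32, 8, 14 and 38 with a minimum of 40 reads. Gene bodies called for H3K9me3 numbered 3 with a trend in limma (1.53%, against 7.12% of all) and 5 with limma-voom (2.55%, against 10.4%), and tiles called for H3K27me3 31 (0.352%, against 0.244%) and 53 (0.601%, against 0.431%), with 1 for H3K9me3 under limma-voom (0.0113%, against 0.0386%). In 100 kb windows 16 calls were made for H3K9me3, and 0 to 38 with 1 library left out (2 without the first control, 0 without the second, 25 and 38 without the first and second DNMT1KO library); for H3K27me3 there were 35 (19.02%, against 12.6%) and for H3K9me2 27 (14.8%, against 13.5%) without the first DNMT1KO library. The chromosome 14 window lost its H3K9me3 call with a trend (adjusted p = 0.402) and with limma-voom (0.239), and that of chromosome 16 with day 4 libraries added (0.0901) and with libraries centred on the median window (0.0722); chromosome 3 kept its call in every alternative run. Leaving out 1 library gave 0 to 2 windows for H3K27me3 and for H3K9me2 (2, or 10.5%, without the first DNMT1KO library of either mark, against 15.1% and 10.2% of all), 1 to 3 for H3K9me3 (1 without the second control, or 5.26% against 18.9% of all), 0 to 3 gene bodies for H3K27me3 (3 without the second control, or 1.46% against 2.14%), 0 for H3K9me2, 0 to 1 for H3K9me3 (1 without the second DNMT1KO library, or 0.518% against 0.551%), and 0 to 496 tiles for H3K9me3 (496 without the second DNMT1KO library, or 5.62% against 6.07%, and 41 without the first, or 0.465% against 0.522%).

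Same-numbered libraries share only a number: with 2 pairs a pairing could not be established, and the correlations of same-numbered deviations over windows came to 0.906 (H3K27me3), 0.396 (H3K9me2) and 0.454 (H3K9me3). With a replicate block limma called 4 first windows for H3K27me3, all higher (21.1%, against 37.7% of all), 1 for H3K9me2 (5.26% against 13.1%) and 5 for H3K9me3 (26.3% against 63.4%), 76 of 184 windows of 100 kb for H3K27me3 (45 higher, 31 lower; 41.3% against 28.7%), 15 for H3K9me2 (8.15% against 11.5%) and 42 for H3K9me3 (22.8% against 38.7%), and 31 gene bodies for H3K27me3 (24 lower, 7 higher; 15.05% against 13.9% of all).

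Depth limits single tiles: the shallow H3K9me3 library placed 3 reads in its median tile, and the median tile of the first 0.1 Mb held 9 input reads.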
